A study of Mus musculus with 8 samples.

Results

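Chromatin accessibility was compared between 2 libraries labelled as Dek knockout and 2 control libraries of mouse leukemia cells, which make up 4 of the 8 samples of the series. They were chosen by genotype: the controls FL 1 and FL 2 had both Dek alleles floxed and no Cre in the label (Dek fl/fl), and the knockouts KO 1 and KO 2 combined Dek fl/fl with Mx1-Cre. All 4 came from bone marrow of mice with acute myeloid leukemia driven by the MLL-AF9 fusion, so the controls carry the fusion too. The assayed cells were leukemic granulocyte-macrophage progenitors, sorted as negative for lineage markers and Sca-1 and positive for c-Kit, CD16/32 and CD34. Per the labels, about 5000 cells entered each ATAC-seq reaction and libraries received 13 to 16 PCR cycles. In Mx1-Cre, the interferon-inducible promoter of Mx1 drives the recombinase, which also acts outside the blood. The labels give neither an inducing treatment nor the animals' ages, and they do not say that replicates came from separate mice, so every spread below may be technical. Bulk libraries cannot tell a smaller share of cells with an open site from a weaker opening in each cell.

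DEK is an abundant chromatin protein that binds DNA and histones, acts as a chaperone for the histone variant H3.3, and was first found in the DEK-NUP214 fusion of acute myeloid leukemia. ATAC-seq marks DNA that a transposase can reach, mostly active promoters and enhancers. MLL-AF9 leukemias depend on HoxA genes, Meis1 and their partner Pbx3, which keep progenitors self-renewing.

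The deposited data are 1 peak list per library. On the 19 autosomes and X they held 51510 peaks in FL 1, 54887 in FL 2, 56245 in KO 1 and 74026 in KO 2. The KO lists were longer by 11937 peaks on average (53199 ± 2388 in FL, 65136 ± 12573 in KO, SD, n = 2). An exact two-sided permutation test gave p = 0.333, the smallest that 2 against 2 libraries allow, and without KO 2 the difference was 3046.5. Read depth is unknown. Merging peaks that shared 1 bp gave 89507 regions, of which 35999 (40.2%) were held by all 4 lists. For those, each library's strongest −log10 q in the region was turned into a rank percentile from 0 to 100 over the same 35999 regions. Differences between such percentiles are called points, KO minus FL.

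Markers of the sorted cells were checked first. Kit and Cd34 had regions at the gene's start that stood between percentiles 81.7 and 90.3 of all 4 whole lists. Fcgr3 and Fcgr2b, which encode CD16/32, held at least 3 regions in every library, and Cebpa, the granulocyte-monocyte regulator, had its region between percentiles 90.2 and 92.1. The strongest regions of Csf1r, Csf3r and Spi1 stood between 83.6 and 95.4. The progenitor genes Mpo and Elane were weaker, more so in the controls. Their strongest regions stood at 61.5 and 38.4 in FL 1, 46.6 and 50.0 in FL 2, 80.9 and 70.7 in KO 1, and 82.6 and 69.2 in KO 2. Their start regions did not pass the test (limma adjusted p = 0.260 and 0.365). Ly6a, which encodes Sca-1, and the endothelial gene Tek had no region within 2 kb in any list. At Dek itself, chr13:47105649-47106540 lies inside the gene near its start and was held by all 4 lists, so the lists show no loss of a Dek peak. Its rank percentile was 65.5 in FL 1, 67.3 in FL 2, 47.5 in KO 1 and 45.4 in KO 2. Both KO libraries were lower, with a shift of −19.97 points (SE 9.10, limma adjusted p = 0.370) that did not pass the test. Which exons the loxP sites flank is not given in the sources used here.

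Libraries of the same genotype ranked the shared regions more alike than libraries of different genotype. The rank correlation was 0.902 between FL 1 and FL 2 and 0.897 between KO 1 and KO 2, and from 0.837 to 0.867 across genotypes. The median absolute difference was 6.47 points between the FL libraries and 6.97 between the KO libraries, against 7.81 to 8.59 across. The median absolute shift between the group means was 6.54 points, and the median standard error of a shift was 8.83 points.

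Few single regions stood beyond that spread. limma on the rank percentiles called 5 regions higher in KO (0.0139% of 35999) and 4 lower (0.0111%) at an adjusted p under 0.05, and 4729 regions (13.1%) had an unadjusted p under 0.05. No region was called when fold enrichment was ranked in place of −log10 q, or when the trend of variance with strength was left out. The count of 5 higher and 4 lower became 9 and 0 without FL 1, 12 and 0 without FL 2, 1 and 49 without KO 1, and 6 and 62 without KO 2.

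The promoter of Tdrkh, which encodes a Tudor-domain protein of the piRNA pathway, ranked higher in KO by the most. The region chr3:94412767-94413461 stood at percentile 18.9 in FL 1, 13.2 in FL 2, 96.1 in KO 1 and 97.3 in KO 2. It was a weak peak in both controls and among the strongest in both knockouts, a shift of 80.67 points (SE 9.16, adjusted p = 0.012).

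The region at Mx1, the interferon-induced GTPase whose promoter drives the Cre, was also ranked higher. It covers chr16:97462810-97463652, across the edge of the Mx1 span at its higher coordinate, 97462906. Its percentile was 56.3 in FL 1, 50.5 in FL 2, 92.8 in KO 1 and 90.9 in KO 2. The deposited −log10 q was 24.9, 21.8, 69.7 and 97.7 in the same order, and the shift was 38.42 points (SE 5.20, adjusted p = 0.0282). Only the KO genomes carry the transgene with an Mx1 promoter, and peak lists cannot tell apart reads of the transgene and of the native gene. At Mx2, the neighbouring interferon-induced gene, the region chr16:97534892-97535565 stood at 3.81 in FL 1, 4.83 in FL 2, 25.4 in KO 1 and 11.8 in KO 2. Both KO values were above both FL values there, but the shift of 14.26 points did not pass (adjusted p = 0.440). The other Mx2 region, 59 bp from the gene, stood at 26.4, 52.5, 64.2 and 51.7, so the groups overlapped (adjusted p = 0.533).

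The other 3 higher calls lay away from gene starts. A region inside Palld, which encodes the actin-bundling protein palladin, stood at 46.1 in FL 1, 41.0 in FL 2, 91.5 in KO 1 and 90.6 in KO 2 (shift 47.48, SE 6.43, adjusted p = 0.0282). A region 36212 bp from Adamts2, a procollagen-processing protease, stood at 63.2, 52.2, 91.6 and 91.5 (shift 33.89, SE 5.07, adjusted p = 0.0499). A region inside Cdh17, a cadherin of gut epithelium, stood at 57.1, 66.3, 93.3 and 90.3 (shift 30.14, SE 4.56, adjusted p = 0.0499). These 3 regions were of middle rank in the controls and above percentile 90 in both knockouts.

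The lower calls included 1 promoter. At Macrod2, which encodes an ADP-ribose hydrolase, chr2:140395072-140395620 stood at 93.8 in FL 1, 95.1 in FL 2, 45.8 in KO 1 and 44.2 in KO 2 (shift −49.49, SE 5.77, adjusted p = 0.012). A region 20347 bp from Mfhas1, a leucine-rich repeat gene, fell from 86.4 and 81.6 in the FL libraries to 0.07 and 3.19 in the KO libraries (shift −82.34, SE 11.39, adjusted p = 0.0282). A region inside Cad, whose product starts pyrimidine synthesis, fell from 85.4 and 80.2 to 3.46 and 11.8 (shift −75.16, SE 11.27, adjusted p = 0.0499). The remaining call lay 236422 bp from Myt1l, beyond the distance of 100 kb used for naming, and fell from 97.6 in both FL libraries to 83.3 and 80.4 (shift −15.79, SE 2.15, adjusted p = 0.0282).

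Leaving out 1 library ended each of the 9 calls. By limma, the 5 higher calls were lost without KO 1 (adjusted p = 0.0512 at Tdrkh to 0.106 at Cdh17), and those of Adamts2, Cdh17 and Palld also without KO 2. The 4 lower calls were lost without FL 1 (adjusted p = 0.095 to 0.184) and without FL 2 (0.0859 to 0.178). In equal-length lists the calls at Adamts2 and Cdh17 (both adjusted p = 0.0551) and Cad (adjusted p = 0.0502) were lost and the Mfhas1 region was not matched, and with whole-list percentiles those of Cad (0.126) and Mfhas1 (0.0601) were lost. With fold enrichment ranked the shift became 16.22 at Mx1, −29.30 at Macrod2 and −5.93 near Myt1l. With whole-list percentiles it became −27.82 at Macrod2 and −8.52 near Myt1l.

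Further regions had wide gaps between the groups but did not pass the test. At the promoter of C1qb, which encodes a chain of complement C1q made by macrophages, the percentile was 5.16 in FL 1, 3.98 in FL 2, 68.8 in KO 1 and 76.2 in KO 2 (adjusted p = 0.0952). At the promoter of Dsel, a dermatan sulfate epimerase-like gene, it was 57.1, 56.4, 0.67 and 0.51 (adjusted p = 0.133). Regions nearest Bnc2, Tns1, Setbp1, Oprm1, Plxdc2 and Lrp8 had higher KO values with gaps of 52.05 to 64.61 points. Those nearest Ube4b, Cenpo, Lpar1, Calcrl, Fbxo43, Wdr89, Unc119b and Bbc3 had lower KO values with gaps of 43.67 to 55.76 points, Dsel included. Bbc3 encodes the p53-induced cell death protein PUMA, and its region stood at 76.0, 75.7, 29.5 and 32.1.

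**Figure D1:**
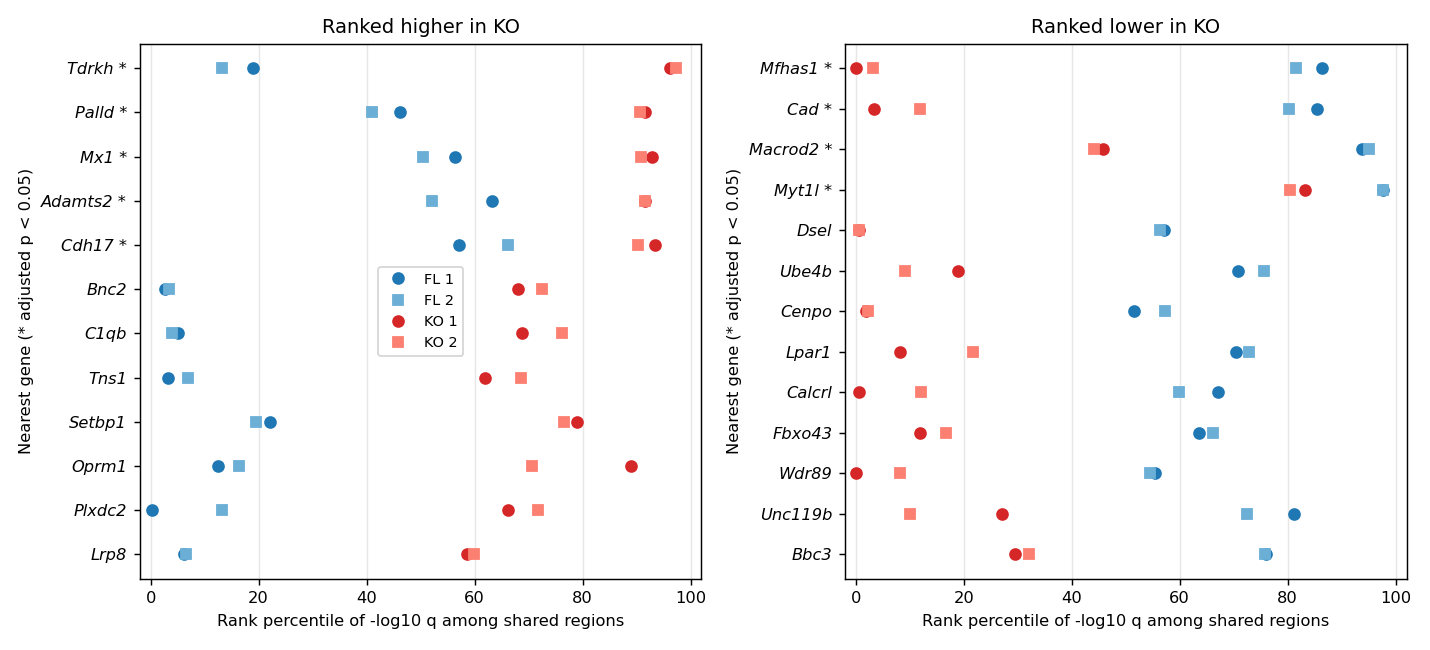
Rank percentile of −log10 q (x axis, 0 to 100 over the 35999 shared regions) in each library for regions with the widest gaps, named by nearest gene, with those at an adjusted p under 0.05 starred at the top. Blue marks are FL and red marks KO: at Tdrkh the FL libraries sit at 18.9 and 13.2 and the KO libraries at 96.1 and 97.3.

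Promoter sequences are shown for 4 genes whose start fell in a region with such a gap, and for Hoxa5, whose start region was absent from both KO lists. Each line gives the 250 bases before the gene's start in GRCm38.p6 (RefSeq), read 5′ to 3′ along the gene, with capitals marking matches to the CCAAT box (CCAAT) or the GC box (GGGCGG) on either strand. The windows are chr3:94412994-94413243 (plus strand) for Tdrkh, chr2:140395180-140395429 (plus) for Macrod2, chr1:111864919-111865168 (minus) for Dsel, chr4:136886201-136886450 (minus) for C1qb and chr6:52204588-52204837 (minus) for Hoxa5, which is described further on.
Tdrkh: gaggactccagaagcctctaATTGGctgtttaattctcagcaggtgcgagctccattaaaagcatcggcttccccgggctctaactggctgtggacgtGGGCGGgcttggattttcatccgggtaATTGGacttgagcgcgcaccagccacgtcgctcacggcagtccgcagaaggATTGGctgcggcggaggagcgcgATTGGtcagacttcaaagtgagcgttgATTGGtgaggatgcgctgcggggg
Macrod2: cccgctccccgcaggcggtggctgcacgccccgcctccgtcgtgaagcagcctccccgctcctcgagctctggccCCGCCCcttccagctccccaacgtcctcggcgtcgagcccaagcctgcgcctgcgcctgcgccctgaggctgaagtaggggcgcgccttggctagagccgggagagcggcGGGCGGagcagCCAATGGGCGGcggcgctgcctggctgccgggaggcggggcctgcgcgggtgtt
Dsel: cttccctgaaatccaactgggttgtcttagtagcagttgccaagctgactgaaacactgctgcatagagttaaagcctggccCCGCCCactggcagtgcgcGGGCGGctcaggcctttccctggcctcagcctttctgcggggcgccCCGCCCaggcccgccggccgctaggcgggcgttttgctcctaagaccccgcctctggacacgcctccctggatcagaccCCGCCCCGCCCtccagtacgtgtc
C1qb: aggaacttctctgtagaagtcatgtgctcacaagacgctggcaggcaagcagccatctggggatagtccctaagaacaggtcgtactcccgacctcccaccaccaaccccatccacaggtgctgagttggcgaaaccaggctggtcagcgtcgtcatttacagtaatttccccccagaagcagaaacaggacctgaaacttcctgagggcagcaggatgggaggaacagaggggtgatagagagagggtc
Hoxa5: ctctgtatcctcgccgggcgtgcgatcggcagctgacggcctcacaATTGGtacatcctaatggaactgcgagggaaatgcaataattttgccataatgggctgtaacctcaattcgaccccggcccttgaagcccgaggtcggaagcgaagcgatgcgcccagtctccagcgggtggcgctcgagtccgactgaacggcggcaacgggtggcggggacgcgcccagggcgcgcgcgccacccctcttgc
Tdrkh held 5 CCAAT boxes and 1 GC box. Macrod2 held 1 CCAAT box and 3 GC boxes, and Dsel held 5 GC boxes. C1qb held none of the 13 motifs searched, and Hoxa5 held 1 CCAAT box. A CCAAT box occurred in 38.5% and a GC box in 46.7% of 21045 promoter windows of 300 bases (250 before to 50 after a coding gene's start). The window held 25 CpG pairs at Tdrkh, 33 at Macrod2, 23 at Dsel, 29 at Hoxa5 and 6 at C1qb. Of the called promoters, both CpG-rich, 1 stood on each side, Tdrkh higher and Macrod2 lower.

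A wider set was described by its gap: both KO libraries above both FL libraries by more than 10 points, or the reverse. Of the 35999 regions, 2241 (6.23%) lay higher in KO and 2178 (6.05%) lower, and these counts carry no test. They were 50.7% higher, and 89.4% higher (3801 against 453) when percentiles were taken within the whole list, a scaling that moves the median shift of all regions from −0.149 to 3.36 points. For comparison, 35.3% of regions differed by over 10 points in either direction between FL 1 and FL 2, 37.3% between KO 1 and KO 2, and 41.4% to 45.0% across genotypes.

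CpG-rich promoters stood lower in both knockouts among regions of middle strength (mean percentile 25 to 75). Windows with 15 or more CpG pairs covered 1976 such regions, whose median percentile was 62.6 in FL 1, 62.7 in FL 2, 57.6 in KO 1 and 56.9 in KO 2. The KO medians were both lower, and libraries of 1 genotype lay within a point of each other. Of them 257 (13.0%) lay lower in KO by over 10 points and 40 (2.02%) higher, against 7.97% and 9.54% of the 15969 middle-strength regions in no promoter window. The median shift was −5.46 points against 0.64 outside promoters. With whole-list percentiles both medians moved up, to 0.97 and 6.01, so the sign for CpG-rich promoters depends on the scaling while their place below other regions does not. The difference was small over the whole class: the 6524 CpG-rich promoter regions of any strength had a median shift of −0.97 points. Of those, 4.94% lay lower by over 10 points and 0.98% higher, against 6.05% and 6.23% of all regions.

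CpG-poor promoters stood the other way. In 182 middle-strength regions with under 5 CpG pairs, the library medians were 51.7 in FL 1, 52.1 in FL 2, 55.5 in KO 1 and 54.0 in KO 2. Here 27 (14.8%) lay higher in KO by over 10 points and 9 (4.95%) lower. The class between, with 5 to 14 CpG pairs, had a median shift of −1.37 points. Among the 141 promoter regions that lay higher at any strength the median was 12 CpG pairs, against 25 in the 402 that lay lower and 22 in all 8367 promoter regions.

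**Figure D2:**
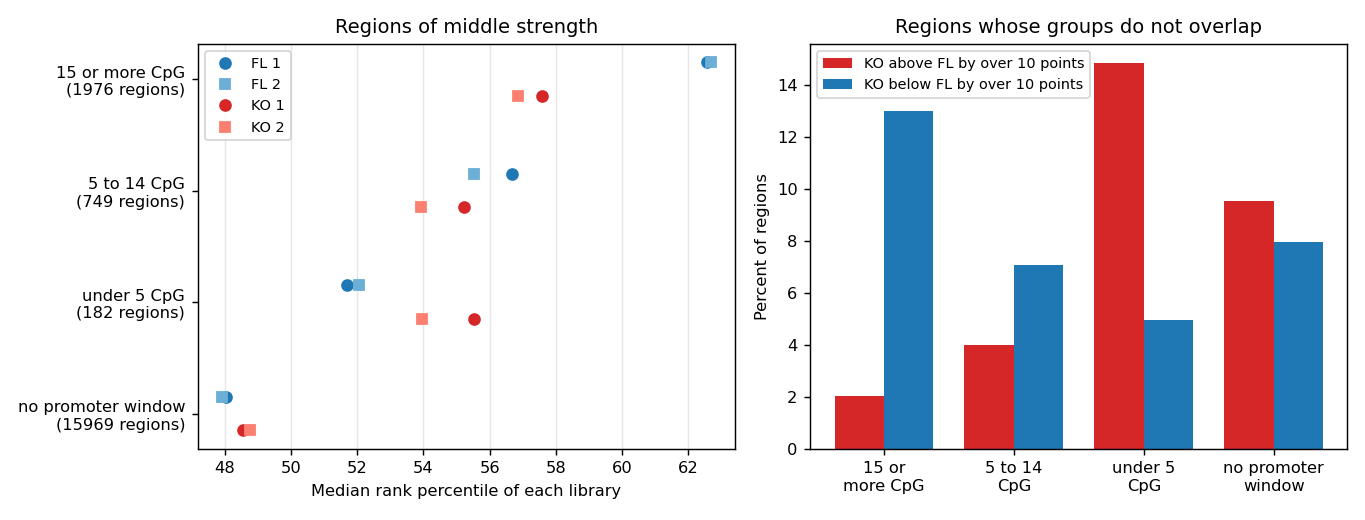
Left, median rank percentile (x axis) of each library over middle-strength regions, by CpG pairs in the promoter window: for 15 or more CpG the FL libraries sit near 62.6 and the KO libraries at 57.6 and 56.9. Right, percent of the same regions (y axis) in which both KO libraries lay above (red) or below (blue) both FL libraries by over 10 points.

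Promoters were also grouped by short motifs of known factors. Over all 2907 middle-strength promoter regions the median shift was −3.81 points. Middle-strength promoters with a CRE (TGACGTCA, bound by CREB and ATF factors) had a median shift of −6.97 points over 113 regions, those with a GC box (GGGCGG, bound by SP factors) −5.64 over 1797, and those with an E-box (CACGTG, bound by MYC and USF factors) −5.04 over 338. The ETS motif (CCGGAAGT) gave −3.61 over 264, close to the value for all. The motif of PU.1 (GAGGAAGT), the master factor of myeloid cells, gave 2.87 over 117, with 13 regions higher and 10 lower by over 10 points. The library medians for PU.1 overlapped, at 53.3 in FL 1, 56.4 in FL 2, 56.7 in KO 1 and 53.9 in KO 2. Over all 290 promoter regions with that motif, of any strength, the median shift was 0.02 points. These motifs occurred in 2.26% (CRE), 46.7% (GC box), 7.91% (E-box), 5.20% (ETS) and 3.15% (PU.1) of all 21045 windows. The other 8 motifs gave median shifts in middle-strength promoters from −3.79 (CCAAT box) to −0.15 (TATA box, TATAAA). They were those of NRF1 (CGCATGCG), YY1 (AAGATGGC), AP-1 (TGANTCA), RUNX (TGTGGT), IRF (GAAANNGAA) and PBX-HOX (TGATNNAT), and they occurred in 2.53% (NRF1) to 38.5% (CCAAT box) of windows. The IRF motif gave −1.96 in middle-strength promoters, with 15 regions higher and 21 lower. Among the 141 promoter regions lying higher at any strength, 11.3% held the PU.1 motif, 14.2% the IRF motif, 22.0% the RUNX motif, 11.3% the TATA box and 7.80% the AP-1 motif. Of all promoter regions 3.47%, 6.53%, 12.4%, 5.95% and 4.28% held them. A promoter can hold several motifs, so these groups share regions. The CRE, GC box and E-box, with the lowest medians, each contain a CpG pair, but so do the ETS (−3.61) and NRF1 (−2.49) motifs. The CCAAT box (−3.79), AP-1 (−2.91), YY1 (−2.38), RUNX (−0.96), TATA box (−0.15) and PU.1 (2.87) motifs contain none. The IRF (−1.96) and PBX-HOX (−0.90) motifs have open positions that can hold a CpG pair. Motifs were not compared at like CpG content, so the part of CpG content in these shifts was not tested.

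Regions were also grouped by position, where strength has to be held alike. Regions within 1 kb of either end of a coding gene numbered 10548, of which 247 (2.34%) lay higher in KO and 540 (5.12%) lower by over 10 points. Inside genes 7.57% lay higher and 6.50% lower, and outside genes within 100 kb 8.20% and 6.14%. These shares pool all strengths, and 5501 of the gene ends were in the strongest of 4 strength classes. There 0.36% of gene ends lay lower, against 0.55% inside genes. In the weaker classes, from stronger to weaker, gene ends lay lower in 8.55%, 14.9% and 8.72%. Inside genes it was 6.36%, 9.76% and 6.20%, so at those strengths gene ends lay lower more often. Gene ends lay higher less often in all 4 classes. Gene ends made up 24.8% of the peaks in FL 1, 23.7% in FL 2, 22.3% in KO 1 and 19.1% in KO 2. The KO minus FL difference in that share was −3.52 percentage points (exact two-sided permutation p = 0.333, the smallest possible). It was −1.90 without KO 2 and −1.55 in lists cut to equal length. Regions with no neighbour within 10 kb lay higher in 8.03% and lower in 4.79%, and those in clusters of 4 or more in 4.48% and 7.72%. Chromosome medians stayed within a point of 0, from −0.87 on X to 0.33 on chromosomes 1 and 13.

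Some loci, picked for it after values were seen, held several regions that lay higher or lower by over 10 points. Over all 35999 regions 6.23% lay higher and 6.05% lower. At Dusp1, a phosphatase that shuts off MAP kinases, 4 of 10 regions lay lower and none higher, and the median percentile of the 10 was 54.2 in FL 1, 50.7 in FL 2, 23.0 in KO 1 and 35.3 in KO 2. At Cdk6, a cell cycle kinase on which MLL-driven leukemias depend, 4 of 23 lay lower and none higher (library medians 47.5, 39.5, 28.3 and 30.6). Chd7, a chromatin remodeler, had 4 of 22 lower, Tiam1, an activator of RAC, 4 of 21, and Matn4, a matrilin, 4 of 7. Runx1, the hematopoietic master regulator, was mixed, with 4 of 24 lower and 2 higher. In the other direction, Peli2, a ubiquitin ligase of Toll-like receptor signalling, had 4 of 5 higher and none lower (17.3, 28.4, 67.5 and 38.1). Tnrc6c, a partner of Argonaute, had 4 of 7 higher (23.4, 31.5, 36.8 and 35.3). Zfp516, with 5 of 20 higher and 2 lower, and Pde4d, with 4 of 23 higher and 2 lower, were mixed. Over a single stretch, chr7:19307777-19345588 at Fosb and Ercc1 had 3 of 12 lower, and chr12:80228980-80235696 at Actn1 had 3 of 3 higher. On chromosome X the stretch nearest Olfr1324 (6 of 19 lower), and near the start of chromosome 9 that nearest Alkbh8 (3 of 14 lower), were dense runs of peaks.

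The HoxA cluster held 11 shared regions, none of them called. Their median shift was −6.48 points, against −0.149 over all regions, and the library medians were 54.4 in FL 1, 58.7 in FL 2, 42.0 in KO 1 and 45.6 in KO 2. Both KO medians were lower. The median shift was −0.95 with whole-list percentiles and −1.76 with fold enrichment ranked. By over 10 points 2 of the 11 lay lower and 0 higher, against 6.05% and 6.23% of all regions. At Hoxa9, the HOX gene most tied to this leukemia, chr6:52225929-52226403 stood at 75.1, 58.7, 42.0 and 37.8 (shift −26.96, SE 10.28, adjusted p = 0.296). At Hoxa7, chr6:52217444-52217768 stood at 57.8, 63.2, 38.4 and 34.1 (shift −24.26, SE 10.77, adjusted p = 0.355). A second Hoxa9 region had the opposite sign, 42.8 and 29.0 in FL against 33.9 and 51.9 in KO, with overlapping groups. At the start of Hoxa5 the region chr6:52204354-52204738 was present in both FL lists, at percentiles 72.3 and 79.0 of those lists, and in neither KO list. It covers the start and part of the CpG-rich window printed above. The cluster's other regions held by both FL lists were in at least 1 KO list, since 1 of 16 was lost.

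**Figure D3:**
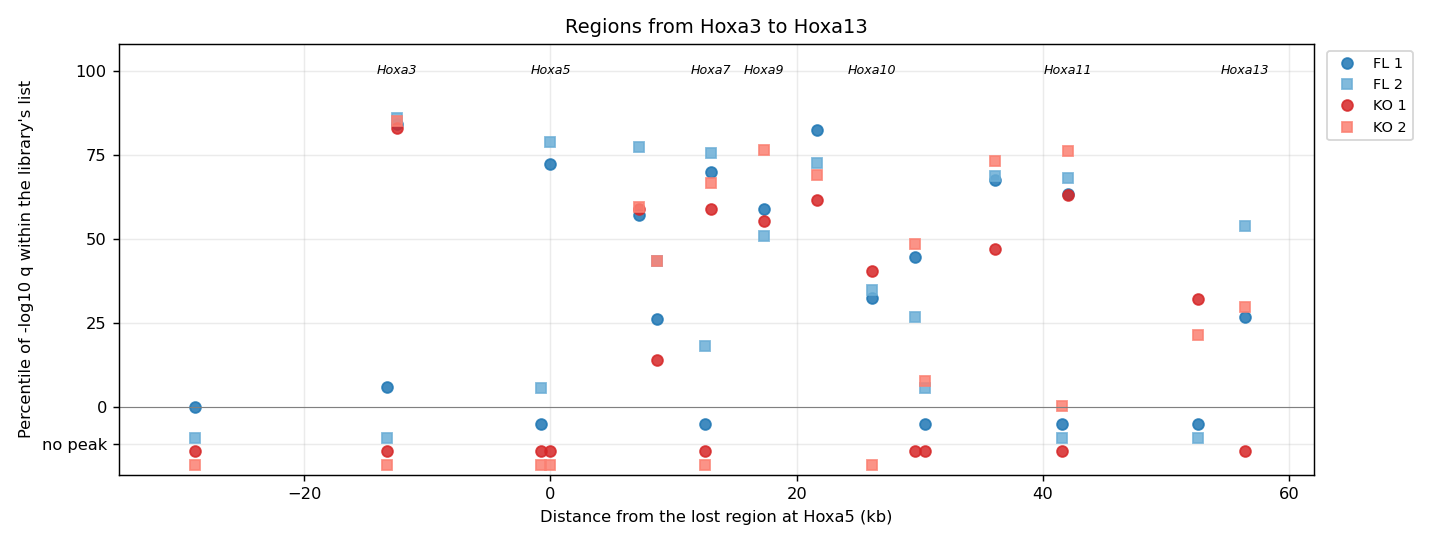
Percentile of −log10 q within each library's whole list (y axis) for the regions from Hoxa3 to Hoxa13, by distance from the Hoxa5 region (x axis, kb), with libraries that lack a peak on the lines under 0. The Hoxa5 region at 0 kb stands at 72.3 and 79.0 in the FL lists and has no peak in the KO lists, and the region near Evx1 lies beyond the axis.

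HOX partners were mixed. At Pbx3, a region across the gene's edge at chr2:34371801-34372319 stood at 32.4 in FL 1, 38.4 in FL 2, 1.82 in KO 1 and 8.11 in KO 2 (shift −30.44, SE 9.14, adjusted p = 0.221). The strong neighbouring region chr2:34372425-34373339 stood at 97.7, 97.4, 91.2 and 97.4, so the strongest Pbx3 region was held by all libraries at a high rank. At Meis1 the strongest region stood at 87.2, 78.1, 74.7 and 83.8, and at Myc the strongest stood at 72.2, 70.6, 67.9 and 65.3. Across the Meis and Pbx genes 1 of 18 shared regions lay lower by over 10 points and 0 higher.

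None of the 2327 shared regions near a gene of the 29 lists passed the test (lowest adjusted p = 0.109), so the lists are described by their gaps. Each count is to be read against all 35999 regions, of which 6.23% lay higher and 6.05% lower by over 10 points. In the MLL-AF9 leukemia program 22 of 178 regions lay lower and 9 higher, with a median shift of −2.32 points that became 2.52 with whole-list percentiles. Its library medians overlapped (47.7, 43.5, 42.6 and 44.1). Within Myb, a factor that these leukemias require, a region stood at 59.9, 55.6, 18.5 and 13.5, while another 31661 bp outside it stood at 55.4, 46.3, 80.4 and 74.9. The immediate early genes had 13 of 133 lower and 4 higher (median −2.57, or 1.52 with whole-list percentiles). Their widest gap was near Dusp1, at 63.3, 52.7, 8.92 and 14.4. Among histone genes 5 of 54 lay lower and 0 higher (median −5.51, or 0.19 with whole-list percentiles), with overlapping library medians of 67.0, 65.2, 65.8 and 59.4. At the linker histone gene H1f0 the start region stood at 70.0, 66.2, 30.5 and 25.7. Ribosomal protein genes had 6 of 111 lower (5.41%, below the share of all regions) and 0 higher with a median of −0.06.

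Granulocyte genes leaned the other way. Of their 47 regions 7 (14.9%) lay higher and 2 (4.26%) lower, against 6.23% and 6.05% of all regions. The median shift of 4.16 points kept its sign in each of the 10 other settings computed for it (3.04 to 9.88, with 9.09 without FL 1 and 7.44 without KO 2). At Mpo, the granule enzyme myeloperoxidase, chr11:87793280-87794224 stood at 46.1, 24.3, 70.3 and 64.3 (adjusted p = 0.260), and at Itgb2l a region stood at 18.9, 0.15, 73.9 and 68.8. Against them, a region near Cebpe, the factor of late granulocytes, stood at 69.1, 59.3, 23.8 and 34.8. The library medians of this list were 39.2 in FL 1, 30.6 in FL 2, 39.1 in KO 1 and 39.7 in KO 2, so FL 1 did not stand apart from the KO libraries. Collagen genes had 9 of 71 higher (12.7%) and 4 lower (5.63%). Their median shift was 5.69 points, from 3.25 without FL 1 to 10.72 with whole-list percentiles, with library medians of 33.0, 27.2, 30.9 and 34.9, which overlapped. Dendritic cell genes had 11 of 73 higher (15.1%) and 4 lower (5.48%), and both KO medians were above both FL medians (40.5, 39.8, 49.8 and 46.6). Their median shift, however, was −0.31 and had the other sign in 5 of 10 other settings.

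Lists of other cell types did not move as one. The sort for lineage-negative, c-Kit-positive cells is meant to remove most mature blood cells. Over all regions 6.23% lay higher and 6.05% lower. Monocyte and macrophage genes had 4 of 80 higher (5.00%) and 3 lower (3.75%). Erythroid genes had 1 of 17 (5.88%) and 2 (11.8%), and megakaryocyte genes 1 of 35 (2.86%) and 4 (11.4%). B cell genes had 1 of 18 (5.56%) and 2 (11.1%), and T and NK cell genes 2 of 28 (7.14%) and 2 (7.14%). The B cell median shift was 5.01 points (1.40 to 6.79 over the other settings), with overlapping library medians of 36.7, 38.4, 36.4 and 50.4. Mast cell, basophil and eosinophil genes had 3 of 26 higher (11.5%) and 1 lower (3.85%). Endothelial genes had 6 of 58 (10.3%) and 6 (10.3%), and stromal genes 2 of 37 (5.41%) and 5 (13.5%). Megakaryocyte medians were lower in both KO libraries (48.8 and 47.8 in FL, 35.8 and 37.2 in KO), with a median shift of −1.93 points that became 2.68 with whole-list percentiles, −7.80 with fold enrichment ranked and −0.15 without KO 2. Their part in the results above was not tested.

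The annotation lists Mx1 and Mx2 as pseudogenes, so the interferon response list leaves them out. Its genes had 3 of 80 regions higher (3.75%) and 0 lower, below the 6.23% and 6.05% of all regions. The median shift was 0.85 points, or −0.64 with fold enrichment ranked, with library medians of 56.6, 57.4, 58.0 and 59.5. The 3 lay near Ifi204 (9.63, 7.62, 50.7 and 52.0), Oasl2 (5.66, 30.6, 52.2 and 48.1) and Ifitm3 (56.5, 42.4, 84.0 and 77.6). Ifnar1, the interferon receptor gene, had a start region between 96.9 and 99.1 in all 4 libraries. Other lists by their counts higher and lower were stem and progenitor (8 and 11 of 101), cell cycle and replication (5 and 2 of 67), apoptosis and p53 (7 and 10 of 92), DEK and chaperone genes (3 and 5 of 51) and Polycomb and Trithorax (4 and 5 of 73). The rest were MAPK feedback (5 and 9 of 124), tight junction (7 and 2 of 56), housekeeping (0 and 3 of 51), zinc finger (30 and 33 of 593), olfactory receptor (4 and 6 of 81) and chemokine genes (9 and 5 of 97).

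**Figure D4:**
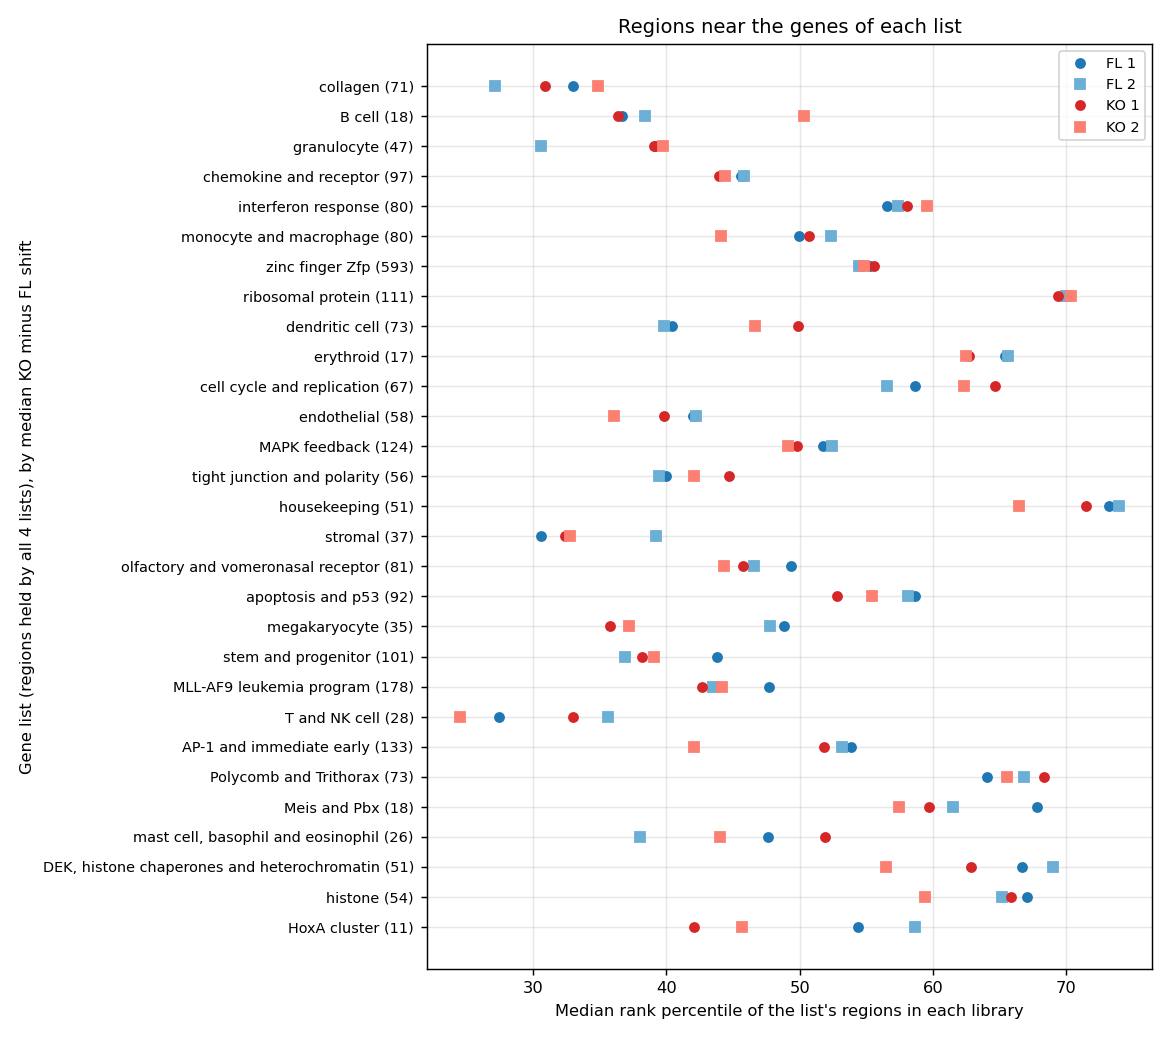
Median rank percentile (x axis) of the shared regions near each list's genes in every library, with the number of regions in brackets and lists ordered by median shift. At the bottom the HoxA cluster has FL medians of 54.4 and 58.7 and KO medians of 42.0 and 45.6, and at the top the collagen libraries overlap.

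Regions were also compared by presence in the lists, which differed in length. Of 40009 regions held by both FL lists, 887 (2.22%) were in neither KO list and count as lost. Of 50330 held by both KO lists, 6958 (13.8%) were in neither FL list and count as gained. With every list cut to its 51510 strongest peaks, 2082 of 39553 (5.26%) were lost and 3478 of 42996 (8.09%) gained, so the excess of gained regions shrank but kept its direction. Within a genotype, FL 2 held 13521 regions that FL 1 lacked and KO 2 held 22854 that KO 1 lacked. Leaving out 1 library moved the lost count to between 1109 and 7113 and the gained count to between 10255 and 21958, with the highest gained count without KO 1 and the highest lost count without FL 1.

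Besides that at Hoxa5, the strongest lost regions lay inside Cfap58, a cilium gene, at list percentiles 73.2 and 87.0, and near Aplf, a DNA end-joining factor, at 72.9 and 75.1. A region inside Kdm1a, the histone demethylase LSD1, stood at 75.3 and 65.8. The others were nearest Phactr1, Pigt, Mex3a and Defb7. The strongest gained regions lay inside Araf, a RAF kinase (87.5 and 84.5), and inside Palld (77.2 and 87.8), where the called region described above also ranked higher. Regions inside Ror1, a receptor tyrosine kinase, stood at 71.9 and 92.0, and inside Tjp1, the tight junction protein ZO-1, at 73.4 and 86.2. The others were nearest Zeb1, Zfp956, Ankrd50 and Dock4. Several genes gained many regions at once: Cgnl1, a junction protein, 9 of 22, Ror1 7 of 12, Ablim1 7 of 19 and Zfhx3 8 of 47. With equal-length lists Cgnl1 gained 6 of 18, Ror1 6 of 9, Ablim1 7 of 13 and Zfhx3 3 of 39. Over all regions the gained counts were 6958 of 89507 and, with equal-length lists, 3478 of 72569. Gene ends made up 13.1% of the lost and 7.49% of the gained regions, against 17.1% of all regions.

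The series holds 1 further knockout and 1 further control from another set, KO 3 with Tie2-Cre and FL 3, which was Dek+/+. Their lists differ in more than genotype, with 91586 peaks in FL 3 and 93041 in KO 3, against 51510 to 74026 in the other set. They covered 49.5 and 48.6 Mb, against 19.6 to 30.5. On chromosome Y below 90 Mb, FL 3 held 28 peaks and KO 3 held 25, where FL 1, FL 2, KO 1 and KO 2 held 0. The part of these differences in what follows was not tested. With ranks taken over the 35401 shared regions that FL 3 and KO 3 also held, KO 3 ranked above FL 3 in 49.7% of them. Among regions lying higher in the Mx1-Cre knockout by over 10 points it did so in 1014 of 2189 (46.3%), and among those lying lower in 1174 of 2109 (55.7%). Both shares lie on the opposite side of the Mx1-Cre direction, and 1 library against 1 gives no test. For middle-strength CpG-rich promoters the median of KO 3 minus FL 3 was 2.72 points, where the Mx1-Cre comparison gave −5.46. At Mx1, FL 3 stood at 29.2 and KO 3 at 48.0. At Macrod2 they stood at 32.9 and 22.3, below the Mx1-Cre controls at 93.8 and 95.1.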

How the data were processed

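ATAC-seq peak lists of 4 libraries (2 FL, 2 KO), with FL 3 and KO 3 for comparison, were analysed. The lists are narrowPeak files with peaks called per sample. For each peak the authors deposited a fold enrichment (a ratio over local background) and a −log10 q, and no header or label records a scaling between libraries. The build was mm10, and the tools named are MACS2, featureCounts, Picard, Bowtie2 2.2.9 and Trim Galore 0.4.4 (per the submitters' processing notes, with no role stated). Peak names inside the KO 1 and KO 2 lists carry other replicate numbers than the labels. Same-numbered libraries did not deviate together (correlation 0.0045).

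Ranks were tested with limma 3.58.1 (R 4.3.3, lmFit, eBayes with trend, two-sided, Benjamini-Hochberg over 35999 regions, 2 residual degrees of freedom), checked on simulated data. Genes came from RefSeq GRCm38.p6 spans: the nearest of 21631 coding genes within 100 kb of the summit. Promoter sequences covered 17274 of them. Predicted genes aside, named regions were the 12 with the widest gap per direction (called ones first), the 8 strongest lost and gained, HoxA genes, Dek, Mx1, Ifnar1, Tek, Pbx3, Meis1 and Myc. Those named from lists were the widest gaps over 10 points, since none was called. Members and lists were chosen with earlier results of these data known. The gap of 10 points, the CpG classes, and the loci with several separated or gained regions were chosen after values were seen. The 4S-A libraries were not analysed here.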

Additional observations from a re-analysis of the deposited data

Results flagged for a closer look

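Of the 9 called regions 8 were held by FL 3 and KO 3. At 4 of the 8 the Tie2-Cre knockout differed from its control in the opposite direction to both Mx1-Cre knockouts, and at the other 4 (Mx1, Cdh17, Macrod2 and Cad) in the same direction, by 18.76, 15.81, −10.52 and −3.40 points. Each rests on 1 library against 1, and the difference between the sets was not tested. Where the directions differed, KO 3 minus FL 3 was −4.25 points at Tdrkh, −6.57 near Adamts2, 3.15 near Mfhas1 and 20.01 near Myt1l, on ranks over the regions both held. At Tdrkh FL 3 stood at 98.2 and KO 3 at 94.0, both near the Mx1-Cre knockouts, and near Mfhas1 they stood at 90.3 and 93.5, both near the Mx1-Cre controls.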

How the results depend on the processing

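All 9 called regions kept their direction in each setting where they could be matched, and all 9 passed with normal scores, with summit-trimmed peaks and with the replicate block. Calls higher and lower in KO were 141 and 89 with normal scores, 8 and 2 with whole-list percentiles, 3 and 2 in equal-length lists, and 0 and 0 with fold enrichment or without the variance trend. The replicate block, for numbers that do not pair these libraries, gave 318 and 236. Leaving out 1 library gave 1 to 12 higher and 0 to 62 lower. Regions lost were 2082 in equal-length lists, 1442 with trimmed peaks and 1109 to 7113 without 1 library, and regions gained were 3478 in equal-length lists and 10255 to 21958 without 1 library. Regions separated by over 10 points were 3801 higher and 453 lower with whole-list percentiles, 673 and 633 at a gap of 20 points, 175 and 148 at 30 points, and 4240 to 4953 higher and 4287 to 4922 lower without 1 library, where a gap over fewer libraries is easier to reach. Of the 29 list medians, 5 kept their sign in every setting (HoxA cluster, granulocyte, B cell, collagen, chemokine and receptor). Depth is unknown, and with 2 libraries a group the smallest exact p is 0.333.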
